A study of Mus musculus with 19 samples.

Results

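The 8 genes described here encode proteins that endothelial cells use to catch and pass leukocytes and platelets: the cell adhesion molecules Vcam1, Icam1, Icam2 and Pecam1, the selectins Sele and Selp, the clotting glycoprotein Vwf, and the atypical chemokine receptor Ackr1. They were taken by name from a count table of whole mouse lung, and all 8 were among its 49585 genes. A filter on low counts kept 14495 genes for testing, among them 7 of the 8, and Ackr1 fell under it. Lung RNA came from 5 Has2+/- mice and 5 WT mice given ovalbumin (OVA), a model allergen, and from 4 Has2+/- mice and 5 WT mice given saline. All were female Balb/c mice 6 to 8 weeks old at the start. Has2 encodes a hyaluronan synthase, and Has2+/- mice carry 1 deleted copy in every cell, backcrossed to Balb/c. OVA mice were sensitized by injection of OVA with aluminum hydroxide and then received OVA into the nose for 8 weeks. Their lungs were taken 24 h after the last challenge. Control mice of both genotypes were injected with saline and received saline into the nose for the same time. OVA therefore stands here for sensitization, adjuvant and challenge together, which cannot be told apart.

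Leukocytes leave the blood in steps. P-selectin (Selp) and E-selectin (Sele) slow them by binding sugars on the leukocyte surface. VCAM-1 and the ICAMs then hold them through leukocyte integrins, and PECAM-1 at the cell borders takes part in their passage between endothelial cells. Vwf protein is stored together with P-selectin in Weibel-Palade bodies, granules that fuse with the endothelial surface within minutes of activation. Sele, Vcam1 and Icam1 are raised by cytokines through NF-kB in cultured endothelium, whereas Icam2 and Pecam1 are made without stimulation. Ackr1 marks venules, where it carries chemokines across the endothelium. In lung, Vwf is found mainly in larger vessels and much less in alveolar capillaries. Several of these genes are also used outside endothelium: Icam1 in alveolar type 1 cells and macrophages, Selp, Vwf and Pecam1 in megakaryocytes and platelets, and Pecam1 and Icam2 in some leukocytes.

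The 19 libraries held 4446534 to 7048676 counts each. The table numbers them 15 to 19 for Has2+/- OVA, 10 to 14 for WT OVA, 6 to 9 for Has2+/- saline and 1 to 5 for WT saline. Has2 itself had 0.554 to 1.41 counts per 1000000 (CPM, scaled by the library size and its composition factor) in Has2+/- OVA lungs and 0.364 to 1.84 CPM in WT OVA lungs (p = 0.214, two-sided exact permutation test). It had 0.334 to 1.52 CPM in Has2+/- saline lungs and 0.197 to 0.629 CPM in WT saline lungs (p = 0.222, two-sided exact permutation test), so it gave no check of the genotype labels at this depth. All 24 genes of an endothelial identity list were detected and tested, with a geometric mean of 153 to 290 CPM per library, so endothelial RNA was present in every lung. Has2+/- saline library 9 stood apart: that mean was 201 CPM there, against 270 to 290 CPM in the other 3 libraries of its group. In it lung capillary markers summed to 3245 CPM, against 5294 to 6563 CPM in the other 3, and alveolar type 1 markers to 4234 CPM, against 5142 to 5911 CPM. Some lists were higher in it: NF-kB-responsive genes summed to 753 CPM, against 575 to 617 CPM, and mural cell markers to 1260 CPM, against 1014 to 1107 CPM. Leukocyte lists were divided. Pan-leukocyte and lymphocyte markers summed to 606 CPM, against 335 to 585 CPM, but myeloid cell markers to 2431 CPM, against 2602 to 2846 CPM. Leukocyte counter-receptors summed to 1602 CPM, within the 1588 to 1787 CPM of the other libraries of its group. In whole lung, fewer cells of a type and less RNA per cell cannot be told apart.

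The RefSeq promoter table (GRCm38.p6) held 4 of the 8 genes, Icam1, Sele, Selp and Ackr1. Its windows run from 250 bases before to 50 after the start of a gene in RefSeq. For Ackr1 and Icam1 that start differs from the gene positions given below. The Ackr1 window lies almost wholly inside the gene as placed there (173331886 to 173333750). The Icam1 window reaches only just past the start of the gene as placed there (21015985). The windows of Icam1 and Sele are shown because these genes are the textbook cytokine-responsive members, and that of Ackr1 because it is the venular one. Capitals mark matches on either strand. The letters searched were GGANNNTCC for a form of the NF-kB site. For AP-1, a dimer of Fos and Jun proteins, they were TGANTCA. For GATA factors, which bind in erythroid and endothelial cells, they were AGATAA. For the TATA box, where the basal machinery binds, they were TATAAA. No match overlapped another.
Icam1 (chr9:21015690-21015989, plus strand): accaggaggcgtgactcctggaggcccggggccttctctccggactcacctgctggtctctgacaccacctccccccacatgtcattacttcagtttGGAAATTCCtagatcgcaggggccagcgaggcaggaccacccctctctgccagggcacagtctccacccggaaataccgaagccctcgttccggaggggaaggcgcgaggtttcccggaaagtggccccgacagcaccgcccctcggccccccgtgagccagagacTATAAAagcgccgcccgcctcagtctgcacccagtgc
Sele (chr1:164047984-164048283, plus strand): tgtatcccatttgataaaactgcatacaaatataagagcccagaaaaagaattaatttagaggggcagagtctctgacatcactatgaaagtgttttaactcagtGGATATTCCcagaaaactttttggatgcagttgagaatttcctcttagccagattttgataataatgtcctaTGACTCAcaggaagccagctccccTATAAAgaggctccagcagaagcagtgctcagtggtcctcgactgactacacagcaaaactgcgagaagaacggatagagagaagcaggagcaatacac
Ackr1 (chr1:173333454-173333753, minus strand): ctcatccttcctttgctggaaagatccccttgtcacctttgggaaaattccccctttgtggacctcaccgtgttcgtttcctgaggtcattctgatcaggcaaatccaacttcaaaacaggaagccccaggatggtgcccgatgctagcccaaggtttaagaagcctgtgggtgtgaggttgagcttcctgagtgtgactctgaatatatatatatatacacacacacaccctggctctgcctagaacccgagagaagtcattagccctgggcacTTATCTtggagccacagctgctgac
The Icam1 window held the NF-kB and TATA letters, and the Sele window those of NF-kB, AP-1 and TATA. Of the letters searched, the Ackr1 window held only those of GATA, and that of Selp, not shown, only those of AP-1. Other spellings of these sites were not searched, so a window without a match may still hold such a site. Of all 32851 promoters in the table, 8.62% held the NF-kB motif, 7.81% that of AP-1, 11.2% that of GATA factors and 13.6% the TATA box, counted in the same way. A match is a description of these letters and not evidence of binding.

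Levels differed widely among the 8 genes, and their order was set per length. CPM were divided by the kilobases of all annotated exons of a gene in GENCODE M21. In WT saline lungs Pecam1 stood highest with 180 ± 15.5 CPM per kb (SD, n = 5), followed by Icam1 with 77.8 ± 5.22, Icam2 with 58.4 ± 5.48 and Vwf with 48.2 ± 2.03 CPM per kb. Vcam1 had 6.12 ± 1.05 CPM per kb. The lowest 3 were Selp with 1.10 ± 0.441, Sele with 0.613 ± 0.322 and Ackr1 with 0.404 ± 0.425 CPM per kb. Over the 5 WT saline libraries, the ranges of neighbours in this order were separate from Pecam1 down to Vcam1 and from Vcam1 to Selp. Those of Icam2 (50.7 to 64.8 CPM per kb) and Vwf (45.9 to 50.6 CPM per kb) all but touched, and those of Selp, Sele and Ackr1 overlapped. In WT OVA lungs Vwf lay above Icam2, at 51.4 to 66.0 CPM per kb against 33.1 to 47.5 CPM per kb for Icam2. In Has2+/- OVA lungs both genes overlapped, Vwf at 43.9 to 49.7 and Icam2 at 28.8 to 45.2 CPM per kb. Pecam1, Icam1, Icam2, Vwf and Vcam1 thus carried nearly all of the members' counts, and Sele had 3 to 18 counts per library.

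**Figure D1:**
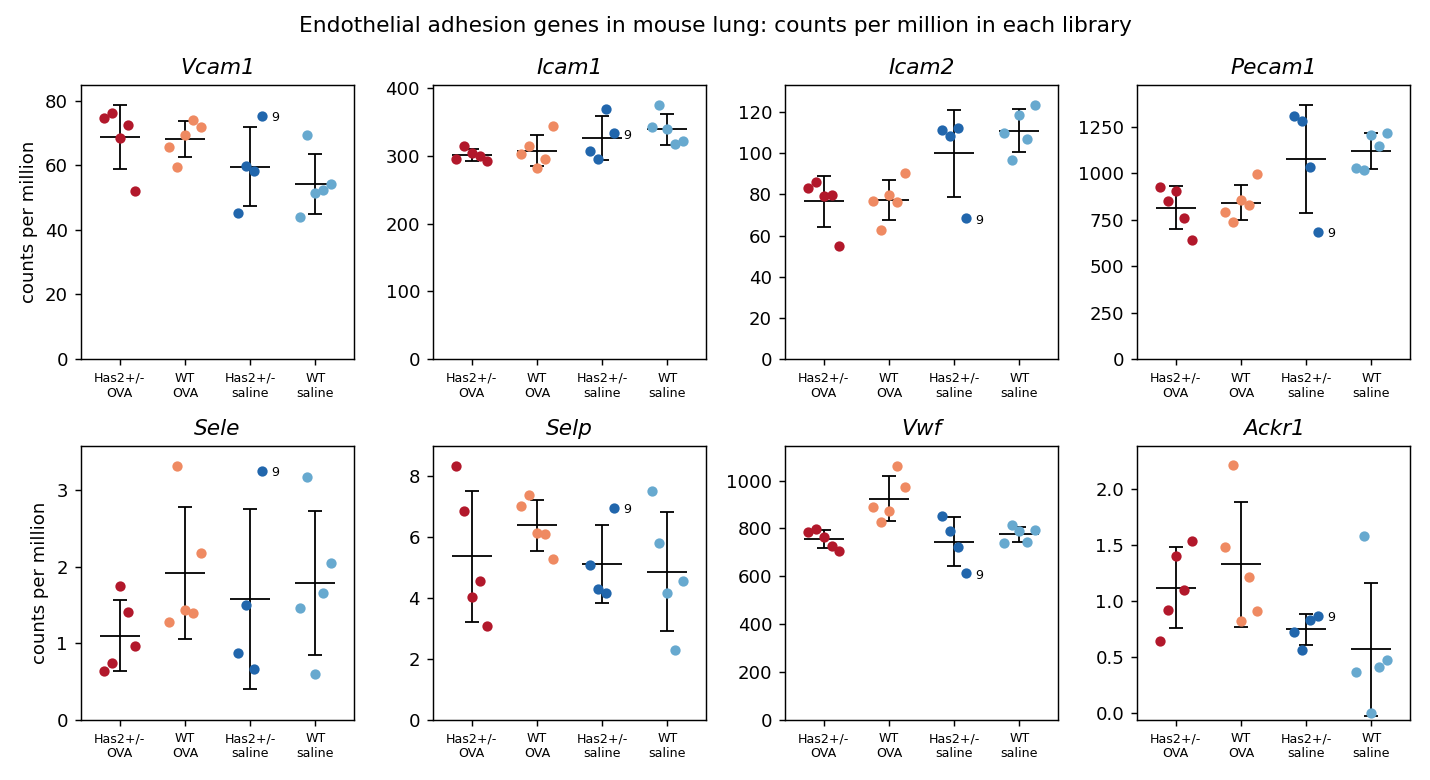
CPM (vertical axis, from 0) of the 8 genes in each library. Points are libraries of Has2+/- OVA, WT OVA, Has2+/- saline and WT saline lungs, bars are the mean ± SD of a group, and "9" marks Has2+/- saline library 9. Icam2 and Pecam1 lay lower in every WT OVA library than in every WT saline library, and Vwf lay higher.

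Icam2 was the only member called in the comparison of OVA with saline in WT lungs. A gene was called where its adjusted p was under 0.01 and its fold change over 1.2. Icam2 (chromosome 11, 106377656 to 106388075, minus strand, mm10), a ligand of leukocyte beta2 integrins that endothelium carries at rest, had 76.8, 63.0, 79.6, 76.4 and 90.4 CPM in WT OVA lungs. In WT saline lungs it had 110, 96.6, 119, 107 and 123 CPM, so the groups did not overlap. Mean levels were 77.2 ± 9.79 CPM in WT OVA lungs and 111 ± 10.4 CPM in WT saline lungs (SD, n = 5 each). Icam2 fell by 0.53 on the log2 scale in WT OVA lungs (SE 0.13, edgeR quasi-likelihood test, Benjamini-Hochberg adjusted p = 0.0037). Of all genes tested, 9.95% were called lower and 21.9% in either direction, against 1 of the 7 members tested, so the members were not called more often than other genes. The Icam2 call was lost without WT saline library 3 or 5 or WT OVA library 11 (adjusted p = 0.012, 0.0138 and 0.0145), and without WT OVA libraries 12 and 13 (0.019). Over the 30 settings run, a scaling to endothelial genes left out, its adjusted p ran from 5.53e-05 to 0.019 and its log2 fold change from -0.58 to -0.46.

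Pecam1 (chromosome 11, 106654217 to 106750628, minus strand), the adhesion molecule of endothelial borders, followed the same course in WT lungs. It had 794, 736, 857, 830 and 995 CPM in WT OVA lungs and 1027, 1015, 1206, 1145 and 1218 CPM in WT saline lungs. The groups did not overlap, and 13.4% of all genes tested had non-overlapping groups that were lower with OVA, against Icam2 and Pecam1 of the 8 members. The log2 fold change of Pecam1 was -0.41 (SE 0.14), at an edgeR adjusted p of 0.0266 that missed the threshold. Without Has2+/- saline library 9, which is in neither of the groups compared, the adjusted p was 0.0035. That library enters this comparison through the filter, scaling factors, estimate of spread and p adjustment that all libraries share. Its range over the 30 settings was 0.0008 to 0.0831.

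In Has2+/- lungs neither gene was called, and library 9 decided this. Icam2 had 83.0, 86.1, 79.5, 79.8 and 54.8 CPM in Has2+/- OVA lungs and 111, 108, 112 and 68.3 CPM in Has2+/- saline lungs, where the last value is library 9. The log2 fold change was -0.39 (SE 0.14, edgeR adjusted p = 0.0388). Pecam1 had 925, 850, 903, 756 and 641 CPM in Has2+/- OVA lungs and 1309, 1281, 1033 and 686 CPM in Has2+/- saline lungs, again with library 9 last. Its log2 fold change was -0.40 (SE 0.15, edgeR adjusted p = 0.0445). Without library 9 the log2 fold changes were -0.53 for Icam2 (adjusted p = 0.00175) and -0.57 for Pecam1 (adjusted p = 0.00092), and both were called. Calls rose among all genes too, to 3261 in either direction without library 9 from 2643 with all libraries. Over the 30 settings the adjusted p ran from 0.00175 to 0.133 for Icam2 and from 0.00058 to 0.198 for Pecam1. With all libraries 0 of 7 members were called by edgeR or by DESeq2. The edgeR background was 7.72% of genes called lower and 18.2% in either direction. An unadjusted edgeR p under 0.05 was found for 2 of the 7 members, beside 5754 of all 14495 genes tested. No member had non-overlapping groups, against 7.33% of all genes on the lower side.

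Vcam1 and Icam1, the cytokine-responsive adhesion molecules of the immunoglobulin family, were not called in either genotype. Vcam1 (chromosome 3, 116109949 to 116129688, minus strand) binds the integrin that eosinophils and lymphocytes carry. It had 74.6, 76.3, 68.5, 72.6 and 52.0 CPM in Has2+/- OVA lungs and 45.1, 59.8, 58.4 and 75.3 CPM in Has2+/- saline lungs. In WT OVA lungs it had 65.8, 59.6, 69.6, 74.1 and 71.8 CPM, and in WT saline lungs 43.9, 69.3, 51.5, 52.3 and 54.2 CPM. The groups overlapped in both genotypes, through libraries 19 and 9 in Has2+/- lungs and through library 2 in WT lungs. The log2 fold change was 0.21 (SE 0.14, edgeR adjusted p = 0.256) in Has2+/- lungs and 0.33 (SE 0.13, adjusted p = 0.0552) in WT lungs. In Has2+/- lungs the Vcam1 value was 0.34 without library 9 (adjusted p = 0.0559), 0.49 without libraries 8, 9 and 19 (0.011) and 0.11 without library 6 (0.6), and it was called in none of these. Icam1 (chromosome 9, 21015985 to 21028817, plus strand), the ligand of leukocyte beta2 integrins that cytokines raise, had 292 to 315 CPM with a median of 299.8 CPM in Has2+/- OVA lungs. It had 295 to 369 CPM in Has2+/- saline lungs, 282 to 343 CPM in WT OVA lungs and 317 to 375 CPM in WT saline lungs. The log2 fold changes with OVA were -0.11 (SE 0.07, edgeR adjusted p = 0.268) in Has2+/- lungs and -0.14 (SE 0.07, adjusted p = 0.127) in WT lungs. Beside Icam1, whose transcripts alveolar type 1 cells also hold, 9 of 12 alveolar type 1 markers were called lower with OVA in each genotype. Their summed level was 3425 to 3903 CPM in Has2+/- OVA lungs and 4234 to 5911 CPM in Has2+/- saline lungs. It was 3497 to 4157 CPM in WT OVA lungs and 5287 to 6057 CPM in WT saline lungs. Their part in the Icam1 values was not tested.

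Vwf and Selp, the cargo genes of Weibel-Palade bodies, were not called in either genotype. Vwf (chromosome 6, 125546774 to 125686679, plus strand), which tethers platelets to the vessel wall, had 889, 826, 871, 1061 and 973 CPM in WT OVA lungs and 737, 813, 788, 744 and 791 CPM in WT saline lungs. Every WT OVA value exceeded every WT saline value, which held for 14.1% of all genes tested on the higher side. The log2 fold change was 0.25 (SE 0.08, edgeR adjusted p = 0.0237), a 1.19-fold difference that passed neither the p nor the fold threshold. In Has2+/- OVA lungs Vwf had 784, 798, 763, 727 and 705 CPM, and in Has2+/- saline lungs 852, 790, 724 and 613 CPM. These groups overlapped throughout, with a log2 fold change of 0.02 (SE 0.09, edgeR adjusted p = 0.898). Selp (chromosome 1, 164115264 to 164150026, plus strand), the selectin stored beside Vwf, had 8.32, 6.83, 4.02, 4.54 and 3.07 CPM in Has2+/- OVA lungs and 5.08, 4.30, 4.17 and 6.94 CPM in Has2+/- saline lungs. It had 7.0, 7.36, 6.14, 6.09 and 5.28 CPM in WT OVA lungs and 7.50, 5.81, 4.14, 2.28 and 4.56 CPM in WT saline lungs. Its log2 fold change with OVA was 0.08 (SE 0.29, edgeR adjusted p = 0.864) in Has2+/- lungs and 0.38 (SE 0.27, adjusted p = 0.302) in WT lungs. At 11 to 52 counts per library, differences of that size were within the spread between replicates.

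Sele (chromosome 1, 164048234 to 164057677, plus strand), the selectin that endothelium makes on cytokine stimulation, was near the detection limit. It had 4, 4, 10, 9 and 5 counts in Has2+/- OVA lungs, 6, 18, 7, 8 and 12 counts in WT OVA lungs, 6, 8, 4 and 15 counts in Has2+/- saline lungs and 8, 18, 3, 8 and 13 counts in WT saline lungs. Means were 1.10 ± 0.468 CPM in Has2+/- OVA lungs and 1.57 ± 1.18 CPM in Has2+/- saline lungs (SD, n = 5 and 4). They were 1.92 ± 0.859 CPM in WT OVA lungs and 1.78 ± 0.938 CPM in WT saline lungs (SD, n = 5 each). With OVA the log2 fold change was -0.42 (SE 0.50, edgeR adjusted p = 0.565) in Has2+/- lungs and 0.09 (SE 0.42, adjusted p = 0.889) in WT lungs, and neither could be told from 0 at this depth. Ackr1 (chromosome 1, 173331886 to 173333750, minus strand), the venular chemokine carrier, was sparser still. It had 4, 5, 8, 7 and 8 counts in Has2+/- OVA lungs against 5, 3, 5 and 4 in Has2+/- saline lungs, and 7, 12, 4, 7 and 5 counts in WT OVA lungs against 2, 9, 0, 2 and 3 in WT saline lungs. The count of 0 in library 3 allows up to 3 counts, or 0.592 CPM. Its mean was 1.12 ± 0.360 CPM in Has2+/- OVA lungs and 0.747 ± 0.138 CPM in Has2+/- saline lungs (p = 0.103, two-sided exact permutation test). It was 1.33 ± 0.559 CPM in WT OVA lungs and 0.567 ± 0.598 CPM in WT saline lungs (p = 0.0714, two-sided exact permutation test). These p-values depended on single libraries. With each library left out in turn, the exact p in WT lungs ran from 0.0159 (without WT saline library 2, 1.58 CPM) to 0.151. That in Has2+/- lungs ran from 0.0286 (without Has2+/- OVA library 15, 0.640 CPM) to 0.196. The start of the Ackr1 gene, 173333258 to 173333750, overlaps Cadm3 on the same strand, so reads there may belong to either gene.

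**Figure D2:**
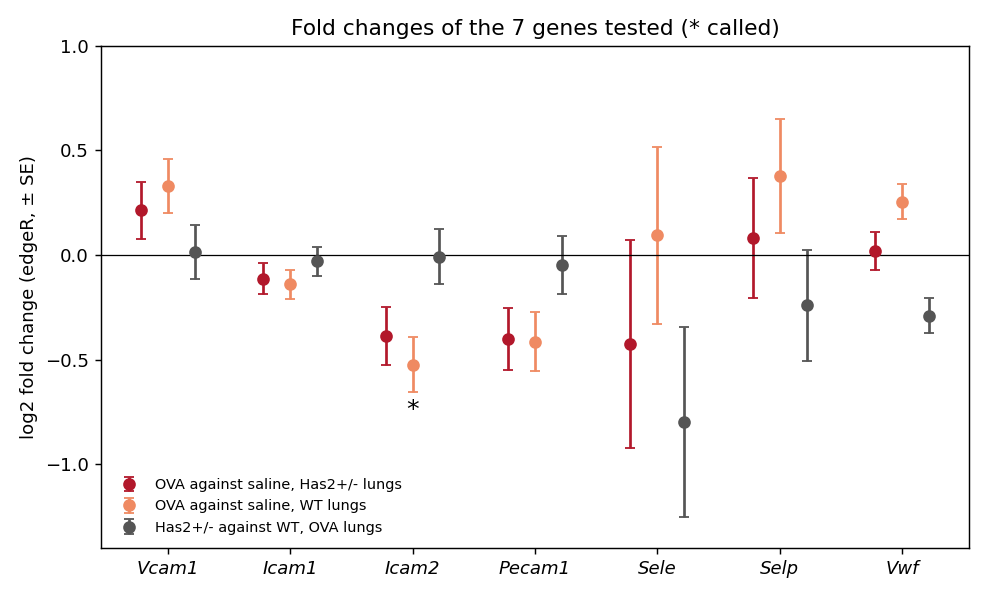
Log2 fold changes (vertical axis) of the 7 genes tested, with standard errors from edgeR, for OVA against saline in Has2+/- lungs, OVA against saline in WT lungs, and Has2+/- against WT in OVA lungs. The asterisk marks the only call in these 3 comparisons, Icam2 in WT lungs at -0.53.

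Genotype made no called difference in any member. Of 14495 genes tested by edgeR, 0 were called between Has2+/- OVA and WT OVA lungs (0.0%), 0 between Has2+/- saline and WT saline lungs (0.0%) and 0 in the interaction of genotype with OVA (0.0%). At an unadjusted p under 0.05 there were 1122, 1007 and 594 genes in these comparisons, and DESeq2 called 9, 1 and 0. Among the 7 members tested, 1 had an unadjusted p under 0.05, Vwf in OVA lungs. Its 5 Has2+/- OVA values, 705 to 798 CPM, all lay below its 5 WT OVA values, 826 to 1061 CPM, a separation found in 0.835% of all genes on the lower side. Has2+/- OVA lungs averaged 755 ± 38.9 CPM of Vwf and WT OVA lungs 924 ± 93.3 CPM (SD, n = 5 each). This difference of -0.29 on the log2 scale (SE 0.08) was not called (edgeR adjusted p = 0.368). Over the 30 settings its value ran from -0.33 to -0.24 and its adjusted p from 0.119 to 0.738. In saline lungs the log2 fold change of Vwf between the genotypes was -0.06 (SE 0.09). The interaction, the OVA effect in Has2+/- lungs minus that in WT lungs, was -0.23 (SE 0.12, edgeR adjusted p = 1.00), so the OVA effect on Vwf was not shown to differ by genotype.

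For the other 6 tested members the genotype difference in OVA lungs was not called and had an unadjusted p over 0.05. It was 0.01 (SE 0.13) for Vcam1, -0.03 (SE 0.07) for Icam1, -0.01 (SE 0.13) for Icam2 and -0.05 (SE 0.14) for Pecam1 on the log2 scale. The selectins were measured less well, with -0.24 (SE 0.27) for Selp and -0.80 (SE 0.45) for Sele (edgeR adjusted p = 0.861 and 0.686). In saline lungs the 7 log2 differences ran from -0.28 for Sele to 0.13 for Vcam1, and in the interaction from -0.52 for Sele to 0.14 for Icam2, with no unadjusted p under 0.05. Ackr1 had 1.12 CPM in Has2+/- OVA lungs and 1.33 CPM in WT OVA lungs (p = 0.548, two-sided exact permutation test). It had 0.747 CPM in Has2+/- saline lungs and 0.567 CPM in WT saline lungs (p = 0.619, two-sided exact permutation test). With each library left out in turn, the latter exact p ran from 0.0286 (without WT saline library 2) to 0.943 (without WT saline library 3).

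Has2+/- OVA lungs were also set against WT saline lungs, the controls already used for WT OVA lungs. Of all genes 9.56% were called lower, and of the 7 members Icam2, at a log2 fold change of -0.53 (SE 0.13, edgeR adjusted p = 0.0034). Without WT saline library 3 or 5 the call was lost (adjusted p = 0.0106 and 0.0121). Pecam1 had -0.46 (SE 0.14, adjusted p = 0.0153) and was called without Has2+/- saline library 9 (adjusted p = 0.00162). Vcam1 had 0.34 (SE 0.13, adjusted p = 0.0472), Icam1 -0.17 (SE 0.07, adjusted p = 0.0684) and Vwf -0.04 (SE 0.08, adjusted p = 0.783). The selectins had -0.70 (Sele, SE 0.46, adjusted p = 0.259) and 0.14 (Selp, SE 0.27, adjusted p = 0.748). Because both OVA groups were compared with the same 5 WT saline libraries, the like values for Icam2 in WT OVA and Has2+/- OVA lungs are not independent of each other. Ackr1 had 1.12 CPM in Has2+/- OVA lungs and 0.567 CPM in WT saline lungs (p = 0.119, two-sided exact permutation test). With each library left out in turn, this exact p ran from 0.0159 (without WT saline library 2) to 0.222 (without WT saline library 3).

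The endothelial share of the RNA moved with OVA, and the members were therefore also read relative to it. The geometric mean of the 24 endothelial identity genes, which hold none of the members, was 174 to 204 CPM in Has2+/- OVA lungs and 201 to 290 CPM in Has2+/- saline lungs. It was 153 to 218 CPM in WT OVA lungs and 239 to 288 CPM in WT saline lungs. Relative to this mean Icam2 stood at a log2 ratio of -1.31 ± 0.20 in Has2+/- OVA lungs and -1.38 ± 0.11 in Has2+/- saline lungs (SD, n = 5 and 4). It stood at -1.29 ± 0.05 in WT OVA lungs and -1.29 ± 0.08 in WT saline lungs. Pecam1 likewise had ratios of 2.10 ± 0.13 and 2.02 ± 0.23 in Has2+/- OVA and Has2+/- saline lungs, and 2.15 ± 0.10 and 2.04 ± 0.10 in WT OVA and WT saline lungs. The differences between OVA and saline were 0.07 in Has2+/- and -0.0013 in WT lungs for Icam2. For Pecam1 they were 0.08 in Has2+/- and 0.11 in WT lungs, and the groups overlapped throughout.

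Relative to the same genes, Vwf was higher in OVA than in saline lungs without overlap in both genotypes, and so was Vcam1 in WT lungs. Of all genes tested, 28.3% were higher without overlap by the same ratio in Has2+/- lungs, against 1 of 8 members, and 49.3% in WT lungs, against 2 of 8, so such a separation was common. The log2 ratio of Vwf was 1.94, 2.09, 1.94, 1.98 and 2.02 in Has2+/- OVA lungs and 1.55, 1.55, 1.37 and 1.61 in Has2+/- saline lungs. It was 2.18, 2.43, 2.09, 2.55 and 2.16 in WT OVA lungs and 1.40, 1.77, 1.45, 1.41 and 1.52 in WT saline lungs, so neither genotype overlapped. The difference was 0.47 in Has2+/- lungs and 0.77 in WT lungs. The ratio of Vcam1 was -1.46 ± 0.17 in Has2+/- OVA lungs and -2.12 ± 0.53 in Has2+/- saline lungs, where library 9 at -1.41 lay within the OVA values. It was -1.46 ± 0.14 in WT OVA lungs and -2.33 ± 0.33 in WT saline lungs, without overlap. The ratio of Icam1 was 0.67 ± 0.09 and 0.34 ± 0.30 in Has2+/- OVA and Has2+/- saline lungs, and 0.70 ± 0.21 and 0.32 ± 0.19 in WT OVA and WT saline lungs, with overlap in both genotypes. The ratios of the sparse genes overlapped too: their differences were 0.18 for Sele, 0.45 for Selp and 0.80 for Ackr1 in Has2+/- lungs. In WT lungs they were 0.65 for Sele, 0.96 for Selp and 1.41 for Ackr1. When the edgeR fit was scaled to the endothelial list in place of library totals, Vwf was called in both genotypes (adjusted p = 0.0015 in Has2+/- and 2.59e-06 in WT lungs) and Vcam1 in WT lungs (0.00056). In the same fit 31.8% of all genes tested were called in Has2+/- lungs and 53.5% in WT lungs, so 1 and 2 of the 7 members lay below the background. Icam2 was then not called, at a log2 fold change of -0.0056 in WT lungs. That scaling moved the median log2 fold change of all 14495 genes to 0.42 in Has2+/- lungs and 0.53 in WT lungs, so relative to the median gene Vwf and Vcam1 stood where they did under library totals. These ratios describe RNA in whole lung, and Vwf, Vcam1 and Icam1 are not restricted to the cells that make the list.

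**Figure D3:**
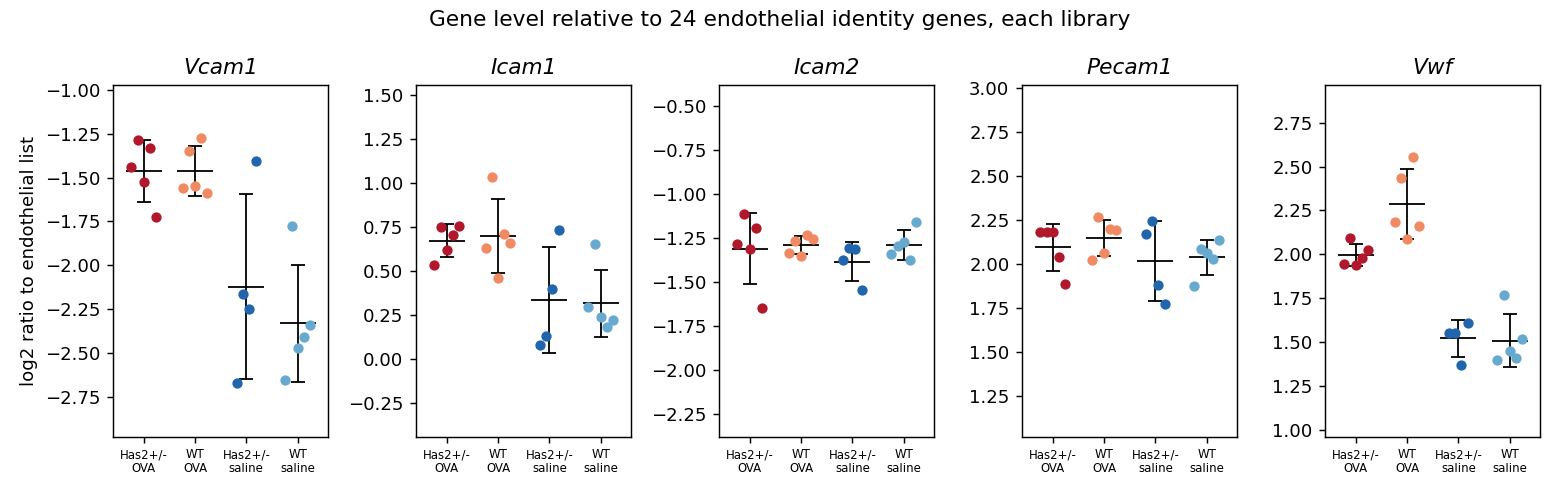
Log2 ratio of a gene to the geometric mean of 24 endothelial identity genes (vertical axis, each panel spanning the same number of log2 units) in each library, with the mean ± SD of each group. Vwf stood higher in every OVA library than in every saline library of its genotype, whereas Icam2 and Pecam1 overlapped between OVA and saline.

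Within groups, Icam2, Pecam1 and Vwf varied together, and for Icam2 and Vwf much of this rested on library 9. Log2 values, centred on the group mean, were correlated over the 19 libraries as a description, bearing in mind that all genes of a library share its depth and tissue sampling. Icam2 and Pecam1 had a Pearson r of 0.88 (Spearman rho 0.77), Vwf and Pecam1 0.78 (rho 0.71) and Icam2 and Vwf 0.67 (rho 0.64). Without library 9 these values were 0.79, 0.60 and 0.44. Vcam1 had an r of -0.02 with Icam2, -0.16 with Pecam1 and -0.02 with Vwf, and 0.43, 0.30 and 0.41 without library 9, so that Vcam1 was then as close to Icam2 as Vwf was. Sele and Selp had an r of 0.09. The 3 genes most like Pecam1 by r were Pea15a, Thbd and Nkd1 (0.96, 0.96 and 0.95), Thbd being thrombomodulin, the anticoagulant receptor of endothelium. Those most like Icam2 were Fam189a2, Aqp1 and Hip1 (0.94, 0.94 and 0.93), Aqp1 being the water channel of capillary endothelium. For Vwf they were Edn1, Clic4 and Trim16 (0.89, 0.88 and 0.85), Edn1 encoding endothelin-1, which is also stored in Weibel-Palade bodies. For Vcam1 they were Cd207, Pak1 and Amica1 (0.82, 0.81 and 0.80), Cd207 being langerin of dendritic cells. For Icam1 they were Psma7, Aim1 and Galk2 (0.80, 0.80 and 0.79), for Selp Dapp1, the row named Itgam_1 and Wt1 (0.78, 0.77 and 0.76). For Sele they were Apopt1, Ccdc74a and Mfsd4a (0.87, 0.84 and 0.83). Each set of 3 was picked for its high r among all tested genes with a name, and that choice itself raises the values. Without library 9 they ran from 0.74 (Amica1 with Vcam1) to 0.94 (Fam189a2 with Icam2).

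Endothelial genes outside the 8 showed by how much the vascular background moved. Of the 14495 genes tested, 1524 were called higher and 1119 lower with OVA in Has2+/- lungs, and 1733 higher and 1442 lower in WT lungs. With OVA 14 of 24 endothelial identity genes were called lower in Has2+/- lungs and 15 of 24 in WT lungs, with median log2 fold changes of -0.55 and -0.48 beside -0.01 and -0.0012 over all genes tested. Ramp2, part of the adrenomedullin receptor, had 157 ± 15.1 CPM in Has2+/- OVA lungs and 254 ± 79.3 CPM in Has2+/- saline lungs, and fell by 0.70 on the log2 scale (edgeR adjusted p = 0.0049). It fell by 0.98 in WT OVA lungs (adjusted p = 0.00013). Kdr, the main VEGF receptor, fell by 0.59 and 0.64 and Tek, the angiopoietin receptor, by 0.66 and 0.84, in Has2+/- and WT lungs in that order. Of 14 lung capillary markers 6 were called lower in Has2+/- lungs and 11 in WT lungs, none higher. Among them were Ednrb, the endothelin B receptor (-0.73 and -0.89), and Car4, a carbonic anhydrase of capillary endothelium (-0.60 and -0.82). In the interaction of genotype with OVA 0 of the 14 capillary markers were called. Their median log2 fold changes with OVA were -0.64 in Has2+/- and -0.78 in WT lungs. Of 10 arterial markers tested 6 and 4 were called lower, among them Efnb2 (-0.66 and -0.56) and the Notch ligand Dll4 (-0.53 and -0.54). The 10 venous and venular genes were divided, with 2 called higher and 1 lower in Has2+/- lungs and 2 higher and 2 lower in WT lungs. Lrg1, a secreted glycoprotein of venules that other inflamed cells also make, rose by a log2 fold change of 1.99 in Has2+/- and 2.19 in WT lungs. Nr2f2, the transcription factor of venous identity, fell by 0.34 and 0.39 on the same scale.

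Genes that act together with the members were described in the same way. Of 16 tested genes of endothelial junctions and transmigration 9 were called lower in each genotype and 0 higher. They included F11r (-0.29 in Has2+/- and -0.53 in WT lungs), which encodes the junctional adhesion molecule JAM-A, and the tetraspanin Cd151 (-0.48 and -0.52). Epithelium also uses both genes. Of 15 tested genes of Weibel-Palade bodies and their exocytosis, 1 was called higher and 2 lower in each genotype. Of all genes tested, 18.2% in Has2+/- and 21.9% in WT lungs were called in either direction. The Weibel-Palade gene called higher was the tetraspanin Cd63 (1.13 and 1.21), which lysosomes of leukocytes also carry. Edn1 was called lower in Has2+/- lungs (-1.345, edgeR adjusted p = 0.0040). In WT lungs it had -0.81 (adjusted p = 0.0485), and the difference between these effects was not called. Among 11 tested genes for coagulation and platelet adhesion, 1 was called higher and 2 lower in Has2+/- lungs and 2 higher and 3 lower in WT lungs. Plaur, the urokinase receptor that leukocytes also carry, rose by 0.40 and 0.46. Ptgis, the prostacyclin synthase, fell in both genotypes (-0.67 and -0.82), and Thbd fell in WT lungs (-0.84, edgeR adjusted p = 0.00047) and had -0.46 in Has2+/- lungs (adjusted p = 0.0514), and the difference between these effects was not called. The chemokine-scavenging relative of Ackr1, Ackr2, fell in both (-0.62 and -0.54). Platelet and megakaryocyte markers, whose cells also hold Selp, Vwf and Pecam1, summed to 94.4 to 106 CPM in Has2+/- OVA lungs and 107 to 160 CPM in Has2+/- saline lungs. They summed to 89.3 to 122 CPM in WT OVA lungs and 110 to 139 CPM in WT saline lungs. Of the 10 tested, 4 were called lower in Has2+/- lungs and 1 in WT lungs, Tubb1, and 0 higher. No marker of the 13 was at 0 in all libraries, and their part in the values of Selp, Vwf and Pecam1 was not tested.

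On the leukocyte side most ligands of these molecules rose. Of 11 tested counter-receptors 7 were called higher in each genotype, with 0 lower in Has2+/- and 1 lower in WT lungs. Itgb2, the beta2 integrin chain that binds ICAMs, had 452 CPM in Has2+/- OVA lungs and 107 CPM in Has2+/- saline lungs on average, and 498 CPM in WT OVA lungs and 133 CPM in WT saline lungs (log2 fold changes 2.08 and 1.90). Itga4, the chain that binds VCAM-1, rose by log2 fold changes of 0.96 and 0.89, and Selplg, the ligand of P-selectin, by 1.10 and 0.80. Pan-leukocyte and lymphocyte markers summed to 2163 to 3243 CPM in Has2+/- OVA lungs and 335 to 606 CPM in Has2+/- saline lungs. They summed to 2287 to 3179 CPM in WT OVA lungs and 403 to 547 CPM in WT saline lungs. Jchain, the joining chain of secreted antibodies, made up most of the OVA sums, where it averaged 1993 CPM with the Has2+/- genotype and 2097 CPM with WT. Of 15 tested NF-kB-responsive genes 3 were called higher and 1 lower in Has2+/- lungs and 4 higher and 0 lower in WT lungs, among them Birc3 (0.49 and 0.54) and Tnip1 (0.51 and 0.50). These 4 of 15 stand beside 18.2% of all genes called in either direction in Has2+/- lungs and 21.9% in WT lungs, so the list was not set apart by its count. Of 17 cytokine receptor and signalling genes 2 and 4 were called higher and 0 lower, also near that background, among them the TNF receptor Tnfrsf1b (0.95 and 0.83). Leukocytes also use these signalling genes, and their part in the difference was not tested.

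**Figure D4:**
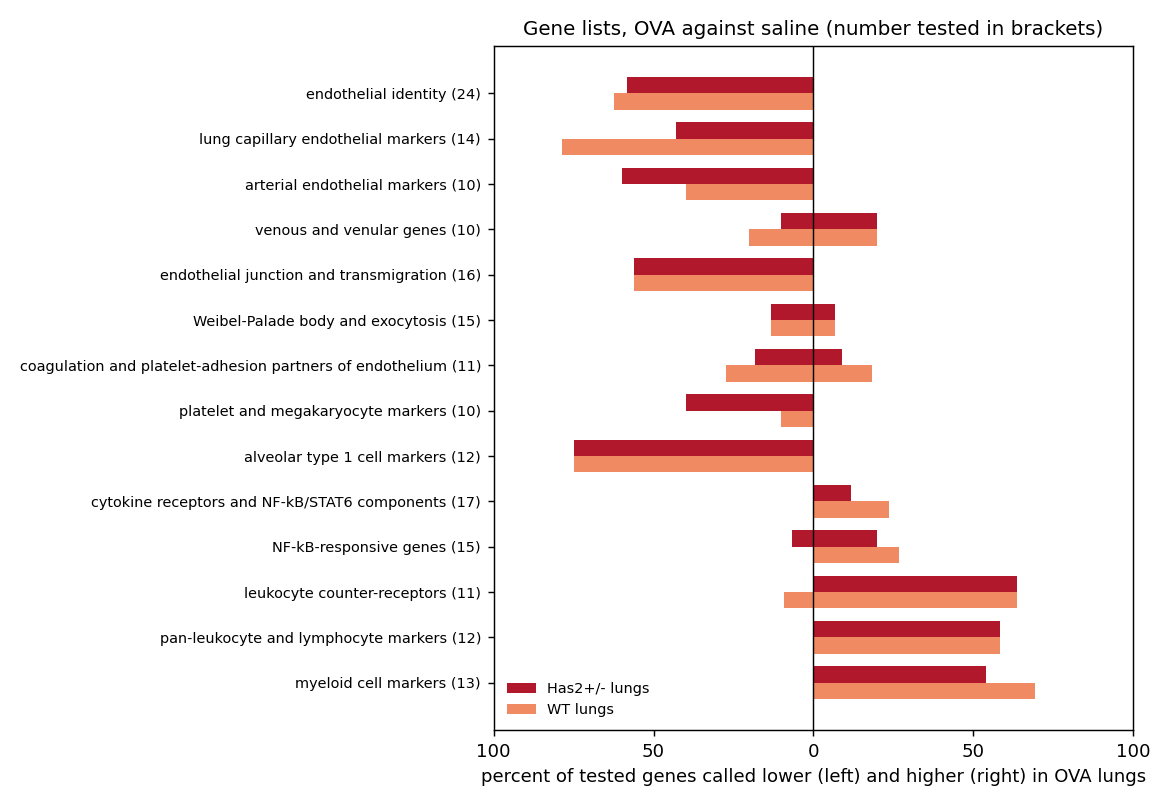
Percent of the tested genes of each list (number in brackets, the 8 members left out) that were called lower, to the left, and higher, to the right, in OVA against saline lungs of Has2+/- and WT mice. Endothelial and alveolar type 1 lists lie mainly to the left and leukocyte lists to the right, while venous and Weibel-Palade body genes lie on both sides.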

How the data were processed

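Whole-lung RNA of 19 mice was sequenced, with a separate library for each animal. The authors aligned the reads to mm10 in CLC Genomics Workbench 10.1.1 and deposited raw counts per gene, which were used unchanged. A further 38 per-library columns of normalized or transformed values, and the authors' own fold changes and p-values, were not used. The sources name both an rRNA depletion kit and an mRNA kit, and strand use in counting is not given in the sources used here. Reads of antisense genes inside Vcam1, Icam1 and Selp could therefore not be told apart. As counted, Gm43109 inside Vcam1 and Gm16587 inside Selp averaged 0.0 CPM, and Gm16548 inside Selp 0.042 CPM. Gm47079 inside Icam1 was not among the genes counted. Columns give a library's group but not its replicate number.

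Counts were fitted with edgeR 4.0.16 in R 4.3.3 (TMM factors, filterByExpr with 10 counts and 15 in total, quasi-likelihood test, 4 group means over all 19 libraries, 15 residual degrees of freedom), two-sided, with Benjamini-Hochberg adjustment over 14495 genes in each comparison. The script was tested on simulated data. The p-values of edgeR set a difference between group means against the spread between these mice, estimated with information shared across genes. Exact p-values rest on all reassignments of libraries to the groups compared. CPM per library used TMM factors. Log2 ratios added 0.5 CPM to each gene. Ackr1 and Has2 were tested by exact permutation of libraries. Gene positions are from the deposited table with 1 added to each start, exon lengths from GENCODE M21 (same assembly), promoters from RefSeq. Counting limits cover counting error only.

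Every member is reported for OVA and for genotype, in full or by its range. Of each list described, up to 4 genes of smallest p in WT OVA against WT saline lungs could be named, and for each tested member the 3 genes of highest r, without predicted genes. The members and lists were chosen with earlier results of these data known. Alternatives were RLE factors, library totals alone, no filter, 20 counts in 4 libraries, only the groups compared, DESeq2 1.42.0, an adjusted p under 0.05, a fold change over 2 to the power 1.2, scaling to the endothelial list, a pseudocount of 0.1 CPM, leaving out each library, and leaving out libraries 8, 9 and 19 or 12 and 13.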

Additional observations from a re-analysis of the deposited data

Results flagged for a closer look

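In each group the highest and the lowest library were checked for their distance from the rest by Dixon's test, for 8 genes in 4 groups, or 32 groups in all, of which chance alone would pick out about 1 in 20. Icam2 was picked out at its low end in 2 of them. In Has2+/- OVA lungs library 19 had 54.8 CPM of Icam2, against 79.5 to 86.1 CPM in the other 4 libraries. In Has2+/- saline lungs library 9 had 68.3 CPM, against 108 to 112 CPM in the other 3. The endothelial identity mean was the lowest of its group in both libraries, at 174 CPM in library 19 and 201 CPM in library 9. The part of that mean in the Icam2 values was not tested beyond the ratio, in which library 19 (-1.65) and library 9 (-1.54) were still the lowest of their groups.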

How the results depend on the processing

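The Icam2 fold change in WT OVA against WT saline lungs was negative under every alternative scaled to library totals, was gone when scaled to the endothelial list (-0.0056, adjusted p = 0.96), and its call depended on single libraries. No paired analysis was possible because the columns of the table carry a group and a running library number but not the replicate numbers of the labels. Members called in OVA against saline lungs were 2 in WT lungs with only the groups compared (3495 genes called), and in Has2+/- OVA against WT saline lungs 2 with only the groups compared (3311 genes) and 2 with DESeq2 (3228 genes). Scaled to the endothelial list they were 1 in Has2+/- and 2 in WT lungs and 2 in Has2+/- OVA against WT saline lungs, and genes called were 4608, 7754 and 7946 in these comparisons. Without libraries 8, 9 and 19 the members called were 2, 2 and 3 in the same order (3398, 3726 and 3319 genes). Without libraries 12 and 13 they were 0 in WT lungs (2413 genes). At an adjusted p under 0.05 they were 2, 2 and 3 (3985, 4367 and 4168 genes). At a fold change over 2 to the power 1.2 they were 0 in WT lungs and 0 in Has2+/- OVA against WT saline lungs, and genes called were 772, 772 and 741. With only the groups compared 1559 genes were called in Has2+/- lungs. Between genotypes in saline lungs 1 gene was called without the filter, 1 with only the groups compared, 1 with DESeq2, 1 without libraries 12 and 13, and 13 without libraries 8, 9 and 19. Between genotypes in OVA lungs 9 were called with DESeq2 and 2 without libraries 12 and 13, and in the interaction 1 without libraries 8, 9 and 19. Leaving out 1 library in turn gave 0 to 2 members called in each of the 3 comparisons with saline, 0 to 5 genes between genotypes in OVA lungs and 0 to 1 in saline lungs.

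Directions reversed only for log2 fold changes that were not called in either setting, with the exception of Vwf in Has2+/- OVA against WT saline lungs where noted. Scaled to the endothelial list the values in Has2+/- OVA against saline lungs were 0.32 for Icam1, 0.079 for Icam2 and 0.067 for Pecam1, and in WT OVA against saline lungs 0.39 for Icam1 and 0.11 for Pecam1. In Has2+/- OVA against WT saline lungs they were 0.35 for Icam1, 0.056 for Pecam1 and 0.48 for Vwf, the last called. Between genotypes in saline lungs they were 0.031 for Icam1 and 0.0084 for Vwf, and in the interaction -0.069 for Icam1 and -0.041 for Pecam1. Without libraries 8, 9 and 19 the OVA effect in Has2+/- lungs was 0.015 for Icam1 and -0.095 for Vwf. The genotype difference was then 0.083 for Icam2 and 0.023 for Pecam1 in OVA lungs, and -0.060 for Vcam1, -0.057 for Selp, 0.081 for Vwf and 0.20 for Pecam1 in saline lungs, and the interaction was 0.15 for Vcam1 and -0.18 for Pecam1. With library totals alone Icam2 differed by 0.012 between genotypes in OVA lungs, and without libraries 12 and 13 the interaction of Icam1 was -0.030.

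Leaving out 1 library in turn, the OVA effect in Has2+/- lungs ran from -0.14 to 0.25 for Selp, from -0.68 to 0.15 for Sele and from -0.063 to 0.10 for Vwf, and in WT lungs from -0.19 to 0.40 for Sele. Selp in Has2+/- OVA against WT saline lungs ran from -0.083 to 0.34. The genotype difference in OVA lungs ran from -0.031 to 0.098 for Vcam1, from -0.075 to 0.088 for Icam2, from -0.059 to 0.0091 for Icam1, from -0.097 to 0.028 for Pecam1 and from -0.337 to 0.011 CPM for Ackr1. In saline lungs it ran from -0.85 to 0.025 for Sele, from -0.12 to 0.26 for Selp, from -0.00028 to 0.24 for Vcam1, from -0.14 to 0.026 for Vwf and from -0.17 to 0.11 for Pecam1. The interaction ran from -0.017 to 0.093 for Icam1, from -0.15 to 0.12 for Pecam1, from -0.23 to 0.014 for Vcam1, from -0.0018 to 0.24 for Icam2 and from -0.82 to 0.054 for Sele. The cause of these changes was not tested. With a pseudocount of 0.1 CPM the differences in ratio between groups moved by less than the larger SD of the groups compared, most for Ackr1, whose difference between WT OVA and WT saline lungs was 2.05 in place of 1.41. At 3 to 18 counts of Sele and 0 to 12 of Ackr1 per library, only large differences of these genes could have been detected.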
